A study of Mus musculus with 40 samples.

Results

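Freshly isolated spleen B cells of Dock10 knockout mice were compared with those of wild-type mice, across all genes of the array. The members were chosen by their labels: every array of cells taken before culture, 10 knockout (KO_Pre) and 10 wild-type (WT_Pre), 20 of the 40 arrays of the series. All mice were C57BL/6 and 12 weeks old, the B cells had been enriched from whole spleen by negative selection, and nothing was added to the fresh cells. Each array set 1 mouse in Cy5 against the same reference in Cy3, a pool of equal RNA amounts from the knockout cells before culture of mice 6 to 10, with no dye swap. A value is therefore a log2 ratio to that pool, and a difference between genotypes is a difference of log2 ratios in which the pool cancels. From mice 6 to 10 of either genotype, cells were in addition kept in culture for 18 h, in medium alone (WT_Ctrl and KO_Ctrl) or with 10 ng/ml of IL-4 (WT_IL4 and KO_IL4), 5 arrays in each of the 4 groups. These 20 arrays serve only for comparison here. The construct of the Dock10 deletion, and whether it acts in all cells of the mouse, is not given in the sources used here.

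Dock10 belongs to the zizimin subfamily of DOCK proteins, large guanine nucleotide exchange factors that load the small GTPases Cdc42 and Rac with GTP and so act on actin and on cell movement. Its closest relatives are Dock9 and Dock11, while Dock2 and its ELMO partners form a separate branch that drives Rac-dependent migration of lymphocytes. In B cells Dock10 is known as an IL-4-responsive gene.

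Some arrays stood apart before any comparison of genotypes. Log2 ratios of Xist, which is transcribed from the inactive X, were 4.74 to 5.92 in the 10 fresh arrays numbered 1 to 4 and 10, and the Y-linked Eif2s3y had -11.14 to -10.1 in the same arrays. In the other 10, numbered 5 to 9, Xist lay between -1.37 and 0.85 and Eif2s3y between -0.15 and 0.68. By these transcripts the first 10 arrays read as female and the other 10 as male. Sex was read only from these ratios, and its part in any difference between the array sets was not tested. The arrays numbered 10 go against the rest of their label: the 4 cultured arrays of that number had Xist at -0.76 to -0.06, and KO_Pre number 10 had 4.99 although its RNA is listed in the pool, where 1 of 5 equal parts allows at most 2.32. The results that moved most with these arrays are therefore also given without both fresh arrays numbered 10 or within each of these array sets. The SD of the log2 ratios over all genes was 0.289 to 0.463 in the 8 arrays numbered 6 to 9 and 0.59 to 0.848 in the other 12. The knockout arrays among the 8 had 0.289 to 0.396, and their RNA is listed in the pool to which they are compared. The wild-type arrays among the 8 had 0.385 to 0.463. The part of the pool in this spread was not tested. A ratio holds no absolute level, so the presence of B cell markers could be compared between arrays but not checked against 0.

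Dock10 mRNA was measured first. Values by array follow the order of the mouse numbers 1 to 10. The wild-type log2 ratios were 0.34, 0.43, 0.36, 0.29, 0.09, 0.62, 0.36, 0.45, 0.27 and -0.24. The knockout log2 ratios were -0.20, -0.03, -0.41, 0.12, 0.16, 0.01, -0.14, -0.12, 0.13 and -0.34. The genotypes overlapped: wild-type numbers 5 and 10 lay within the knockout range, and 9 of the 10 pairs of equal number had the lower value in the knockout, the exception being number 5. The means were 0.30 ± 0.23 and -0.08 ± 0.20 (SD, n = 10 each), a difference of -0.38 (SE 0.10, 95% interval -0.59 to -0.17). Adjusted over all genes it was not called (limma, adjusted p = 1, unadjusted p = 0.00119). Taken alone, the 10 paired differences gave p = 0.00391 in a two-sided exact sign-flip permutation test, which can go no lower than 0.00195 with 10 pairs. Without number 10 the difference was -0.41 and the exact permutation p was 0.00781.

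**Figure D1:**
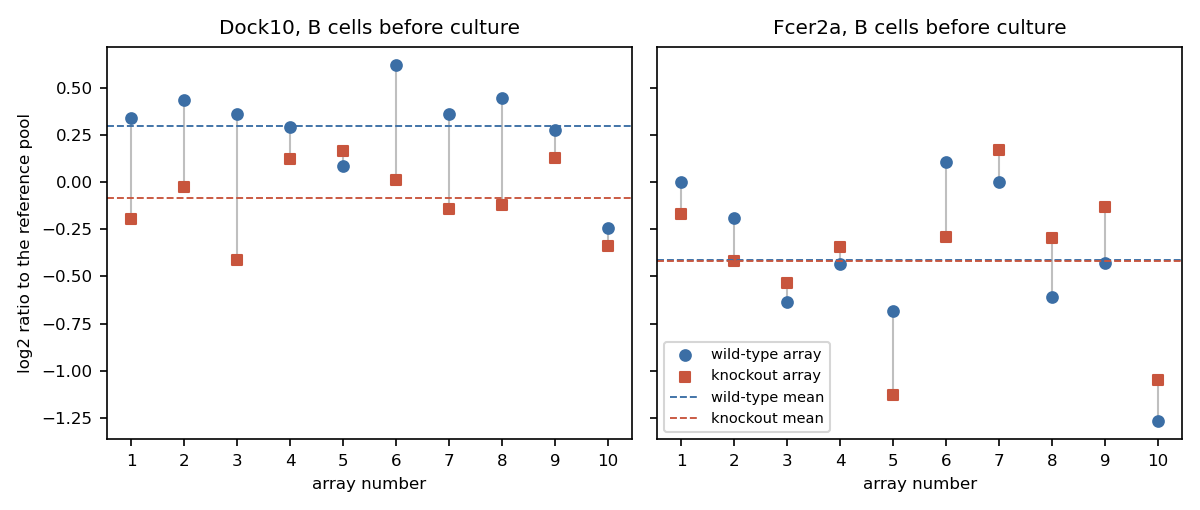
Log2 ratio to the reference pool of Dock10 (left) and Fcer2a (right) by array number, with wild-type arrays as blue circles, knockout arrays as red squares, a grey line joining equal numbers and dashed lines at the genotype means. Dock10 lies lower in the knockout in 9 of 10 pairs around means of 0.30 and -0.08, while the Fcer2a means coincide at -0.41 and -0.42.

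The 3 Dock10 probes did not contribute equally. A_52_P650028 and A_55_P2012849, both designed on the transcript NM_175291, had differences of -0.55 (SE 0.14) and -0.48 (SE 0.13), each lower in 9 of 10 pairs. A_55_P2012845, designed on the cDNA AK148696, had -0.11 (SE 0.16), lower in 7 of 10 pairs. All 3 had an adjusted p of 1.00 over all probes (limma). The pool is itself knockout RNA and the deletion may not cover the probes, so these ratios do not show how much intact Dock10 mRNA the knockout cells held. Fcer2a, the low-affinity IgE receptor CD23 of follicular B cells and a classic IL-4 target, had a difference of -0.0043 (SE 0.18, exact permutation p = 0.965, 10 pairs).

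The relatives and partners of Dock10 were measured next. Dock9 had a difference of 0.08 (SE 0.14) and Dock11 of 0.02 (SE 0.10). Of the 10 measured other DOCK factors and ELMO partners, 3 were lower at an unadjusted p under 0.05 and 0 higher, against 1.85% and 2.22% of all genes. They were Dock5, Dock1 and Elmo1, an ELMO partner with a difference of -0.22 (SE 0.09). Where such a small count is given for a list here and below, its genes are named after their values were seen. Dock5, a Rac exchange factor prominent in myeloid cells and osteoclasts, had ratios of 0.40 to 1.23 (median 0.66) in the wild type and -0.13 to 0.52 (median 0.32) in the knockout. Its difference of -0.43 (SE 0.11, unadjusted p = 0.000739, adjusted p = 1, limma) had the same sign in 10 of 10 pairs although the ranges overlapped. Dock1, the founding DOCK member that acts with ELMO proteins in engulfment, had -1.05 (SE 0.40, lower in 7 of 10 pairs), and Dock4 had -0.43 (SE 0.30). For Cdc42, Rac1 and Rac2, the GTPases on which these factors act, named here for that role after their values were seen, the differences were -0.06, 0.02 and -0.07. The 25 actin and motility genes had a median of -0.03, and 0 had an unadjusted p under 0.05 in either direction. The largest difference among them was -0.33 (SE 0.17) for Tmsb4x, the actin monomer binder thymosin beta 4.

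The genes nearest to Dock10 on its chromosome were also compared. Dock10 lies on chromosome 1 at 80501068 to 80758765 (GRCm38.p6, RefSeq). The 25 measured genes on each side had a median difference of 0.04. Of these 50 genes, 1 was lower and 1 higher at an unadjusted p under 0.05, 2 and 2 with equal numbers as a block. The lower one was Pid1, an inhibitor of insulin signalling, with -0.41 (SE 0.15), and the higher one Acsl3, a long-chain acyl-CoA synthetase, with 0.30 (SE 0.12). Mogat1, a monoacylglycerol acyltransferase, had -0.42 (SE 0.24).

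Over all 21892 genes, none passed an adjusted p of 0.05 (0% called, limma). At an unadjusted p under 0.05 there were 405 genes lower in the knockout (1.85%) and 487 higher (2.22%). With equal mouse numbers as a block, 0 genes again passed and the unadjusted counts were 673 lower (3.07%) and 947 higher (4.33%). Without both arrays numbered 10 the counts were 0 passed, 352 lower (1.61%) and 443 higher (2.02%). The median difference over all genes was 0.02. The 95% interval of the difference lay within 1 log2 unit of 0 for 20409 genes and within 0.5 for 11824.

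The genes with the smallest p-values on the lower side included Axl, Sirpa and C2, which myeloid cells express. Axl, a receptor tyrosine kinase by which macrophages and dendritic cells take up dying cells, had ratios of 0.26 to 2.01 (median 1.56) in the wild type and -1.45 to 0.84 (median 0.02) in the knockout. It was lower in 8 of 10 pairs, with a difference of -1.45 (SE 0.30, unadjusted p = 0.000102, adjusted p = 1). Wild-type arrays 2, 5 and 6 were low, within the knockout range, and the other 7 lay above every knockout array. Sirpa, an inhibitory receptor of myeloid cells that binds CD47, had 0.37 to 1.05 (median 0.60) against -0.40 to 0.85 (median 0.13), a difference of -0.61 (SE 0.14, lower in 9 of 10 pairs). The knockout maximum of 0.85 came from number 5, and the other 9 knockout arrays were at or below 0.42. Cd44, the hyaluronan receptor of activated and memory lymphocytes, had 0.02 to 0.47 in the wild type and -0.36 to 0.01 in the knockout. These ranges did not overlap, and the difference was small, -0.26 (SE 0.06, lower in 10 of 10 pairs). C2, a complement component made by macrophages, had -0.62 (SE 0.16), and Gabarapl1, an autophagy protein of the ATG8 family, had -0.50 (SE 0.13). Stxbp6, a SNARE-binding protein, had -0.97 (SE 0.23), Kcnj16, a potassium channel subunit, -0.94 (SE 0.24), and B3galnt1, a glycosyltransferase of globoside synthesis, -1.13 (SE 0.30). Each of these 5 was lower in 8 or 9 of 10 pairs.

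On the higher side the smallest p-values belonged to Zswim3, Mkks and Mfap1a. Mkks, a chaperonin-like protein of cilium assembly, had ratios of -1.11 to 0.11 (median -0.39) in the wild type and -0.24 to 0.27 (median 0.10) in the knockout, a difference of 0.51 (SE 0.13, higher in 9 of 10 pairs). Zswim3, a zinc finger protein, had 0.38 (SE 0.09), Mfap1a, a splicing factor, 0.24 (SE 0.06), and Zfp830, a zinc finger protein, 0.28 (SE 0.08). Pigc, an enzyme of GPI anchor synthesis, had 0.72 (SE 0.21), and Tmprss11g, a membrane serine protease, 0.87 (SE 0.24). Of these 6 genes, Mkks, Zswim3, Mfap1a, Zfp830 and Pigc were higher in 9 of 10 pairs.

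A second view took genes whose difference had the same sign in all 10 pairs. There were 26 lower in every pair (0.119%) and 45 higher (0.206%), and 291 lower (1.33%) and 413 higher (1.89%) in at least 9 pairs. Retnlg, a resistin-like protein of neutrophils, had ratios of 0.20 to 3.77 (median 1.46) in the wild type and -0.42 to 2.33 (median 0.47) in the knockout, a difference of -1.16 (SE 0.52). Its ranges overlapped widely, and in both genotypes number 4 was among the highest arrays and numbers 6 to 9 were the lowest. Fcer1g, the shared signalling chain of Fc receptors, had -0.67 (SE 0.26), Tgfbi, a matrix protein secreted by macrophages, -0.81 (SE 0.28), and Ctsg, the neutrophil granule protease cathepsin G, -0.81 (SE 0.67). Klra2, a Ly49 receptor, had -1.07 (SE 0.37), Ltbr, the lymphotoxin beta receptor of stromal and myeloid cells, -0.82 (SE 0.32), and S100a4, a calcium-binding protein, -0.55 (SE 0.30). The transcription factor Tshz3 had -0.82 (SE 0.23) and the transporter Slc16a9 -0.85 (SE 0.32). Among genes higher in all pairs, Moxd1, a monooxygenase-like protein, had 0.66 (SE 0.23), Akr1c6, a steroid dehydrogenase, 0.59 (SE 0.21), and Zfp418, a zinc finger protein, 0.52 (SE 0.17).

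Markers of cells other than B cells were set beside these genes as whole lists. In a bulk sample, fewer cells of a type and less RNA per cell cannot be told apart. Of the 18 measured monocyte and macrophage markers, 17 had a lower mean in the knockout, as had 9475 of all 21892 genes. Their median difference was -0.63 against 0.02 over all genes. At an unadjusted p under 0.05, 12 of 18 were lower and 0 higher, against 1.85% and 2.22% of all genes. These shares over all genes also apply to the lists that follow. With the block they are 3.07% and 4.33%, and without both arrays numbered 10 they are 1.61% and 2.02%. Slc40a1, the iron exporter ferroportin of red pulp macrophages, had ratios of -0.72 to 2.34 (median 1.21) in the wild type and -2.74 to 1.54 (median -0.09) in the knockout, a difference of -1.40 (SE 0.45). Mertk, a receptor for the uptake of dying cells, had -1.28 (SE 0.47), Vcam1, an adhesion molecule of macrophages and stroma, -1.15 (SE 0.40), and C1qa, a chain of complement C1q, -1.04 (SE 0.47). None of the 4 had separate ranges: wild-type arrays 2 and 6 were low for each of them, and knockout array 5 was high. The median over the list by array ranged from -0.69 to 1.58 in the wild type and from -0.83 to 1.07 in the knockout, lower in 7 of 10 pairs. The knockout maximum was again number 5, and the other 9 knockout arrays were at or below 0.02. Leaving out single arrays gave 9 to 14 lower members, the fewest without wild-type number 3, and 14 of 18 without knockout number 5, and there were 10 without both arrays numbered 10. The part of these markers in the differences of Axl, Sirpa, C2, Dock5 or Dock1 was not tested.

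**Figure D2:**
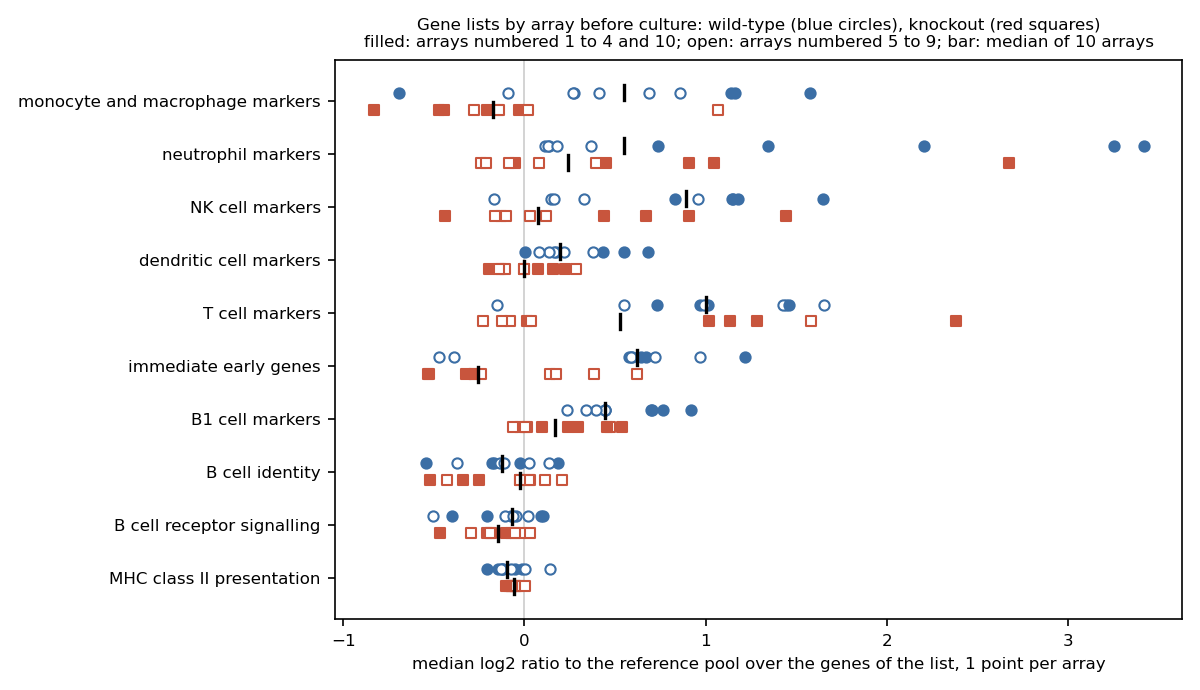
Median log2 ratio over the genes of 10 lists, 1 point per array before culture, with wild-type arrays as blue circles, knockout arrays as red squares and black bars at the median of the 10 arrays of a genotype. Filled points are arrays numbered 1 to 4 and 10. The knockout sits lower for macrophage markers (-0.17 against 0.55) and immediate early genes (-0.26 against 0.62), with overlap, and the genotypes overlap over most of their range for the 3 B cell lists at the bottom.

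The other marker lists spread more between arrays. The 17 neutrophil markers had a median difference of -0.73, with 2 lower and 0 higher at an unadjusted p under 0.05, and 6 lower with the block. The knockout list median was the lower one in 9 of 10 pairs, and the median difference was -1.05 among arrays 1 to 4 and 10 and -0.17 among arrays 5 to 9. Their list median was 2.21 to 3.42 in wild-type arrays 3, 4 and 10 and 2.68 in knockout array 4, and at most 1.35 in the other 16. S100a8 and S100a9, the subunits of calprotectin, had -1.07 (SE 0.80) and -1.21 (SE 0.78), with unadjusted p-values of 0.196 and 0.135. The 2 genes were Retnlg and Stfa2l1, a stefin protease inhibitor, with -1.41 (SE 0.60). The 12 NK cell markers had a median of -0.46 with 4 lower and 0 higher, which were the granule protease Gzma (-1.16, SE 0.41), the transcription factor Eomes (-0.83, SE 0.31), granzyme B (Gzmb, -0.76, SE 0.33) and the Ly49 receptor Klra8 (-0.70, SE 0.26). The NK count was 6 with the block, 3 without both arrays numbered 10, and 3 to 7 when 1 array was left out, the most without knockout array 4. The 15 dendritic cell markers had a median of -0.20 and all 15 means were lower, 4 of them at an unadjusted p under 0.05, namely the lectins Clec10a (-0.84, SE 0.39) and Cd209a (-0.45, SE 0.21), the integrin Itgax (-0.34, SE 0.11) and Siglech (-0.29, SE 0.12), a marker of plasmacytoid cells. Only 1 dendritic cell marker was left at that level without wild-type number 3, and 0 neutrophil markers. The 13 T cell markers had a median of -0.25 with 0 in either direction, 0.04 among arrays 1 to 4 and 10 and -0.60 among arrays 5 to 9. Cd3d, a chain of the T cell receptor complex, ranged from -0.15 to 2.93 in the wild type and from -0.12 to 3.18 in the knockout. Without both arrays numbered 10 there were 3 lower dendritic cell markers and 2 lower basophil and mast cell markers. The 10 basophil and mast cell markers had a median of -0.19 with 1 lower, the receptor Kit (-0.37, SE 0.11), while Hdc, histidine decarboxylase, had -0.89 (SE 0.49). The 12 erythroid markers had -0.26 with 1 lower, the globin Hba-a1 (-0.73, SE 0.29), and the 10 platelet markers -0.05 with 0, which was 0.45 among arrays 1 to 4 and 10 and -0.43 among arrays 5 to 9.

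B cell genes themselves had small mean differences. The 17 B cell identity genes had differences between -0.12 and 0.22 with a median of 0.02, and 0 had an unadjusted p under 0.05. The lineage factors Pax5 and Ebf1 had 0.22 (SE 0.21) and -0.12 (SE 0.16), and Ms4a1, which encodes CD20, had 0.09 (SE 0.21). The 20 B cell receptor signalling genes lay between -0.17 and 0.08 with a median of -0.04, again with 0, and the interval stayed within 0.5 log2 units of 0 for 18 of them. The largest difference of the 20 was that of Pik3cd, the PI3K catalytic subunit of lymphocytes, with -0.17 (SE 0.20, 95% interval -0.58 to 0.24). The 15 genes of MHC class II presentation had a median of -0.01, with 0 lower and 1 higher. That gene was Cd40, the receptor for T cell help, with ratios of -0.52 to 0.13 (median -0.27) in the wild type and -0.13 to 0.09 (median -0.04) in the knockout, a difference of 0.20 (SE 0.08, unadjusted p = 0.020, adjusted p = 1). Ciita, the master regulator of MHC class II, had 0.20 (SE 0.35), and the costimulatory ligand Cd80 had -0.19 (SE 0.13).

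**Figure D3:**
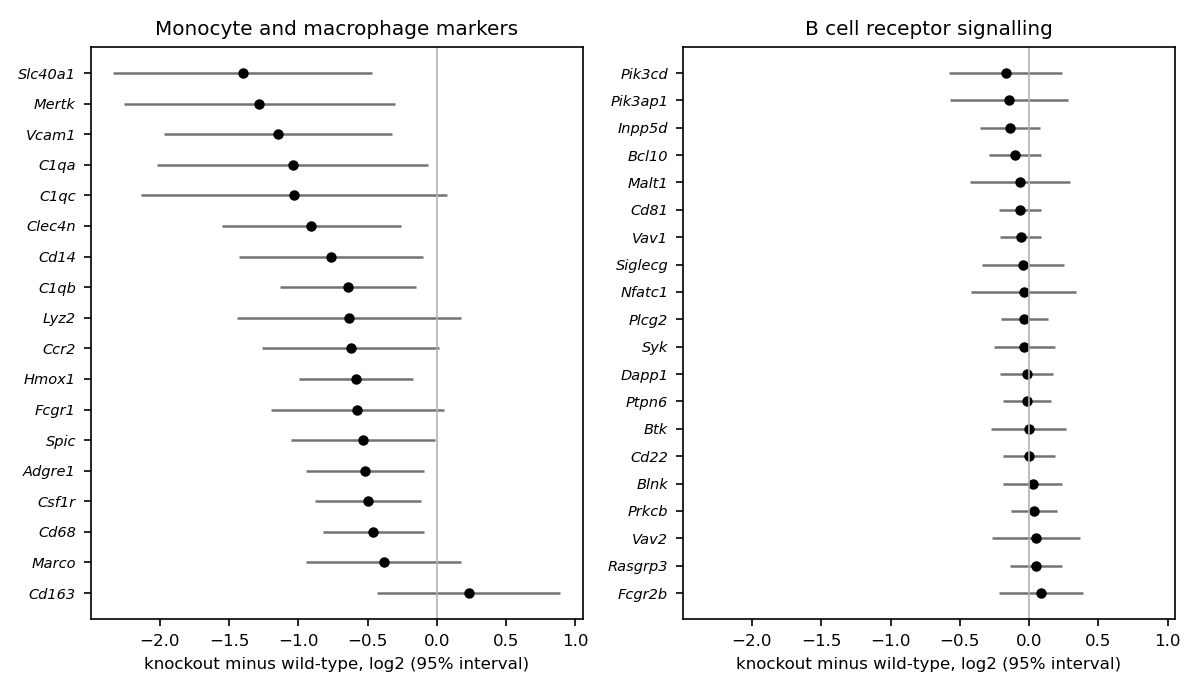
Difference of the mean log2 ratio, knockout minus wild-type (10 arrays each), with its 95% interval from limma, for the 18 monocyte and macrophage markers (left) and the 20 B cell receptor signalling genes (right). The macrophage markers have wide intervals around a median of -0.63 and the signalling genes narrow ones around -0.04. No gene passed the adjusted test.

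B cell subsets were compared by their marker lists. The 7 measured follicular markers had a median of -0.004, with 0 in either direction, Ccr7, the chemokine receptor for T zones, at -0.42 (SE 0.26) and Cxcr5, the receptor for follicles, at 0.25 (SE 0.12). The 12 marginal zone markers had a median of -0.04 with 0, Cd1d1 at 0.15 (SE 0.14) and Myof at 0.20 (SE 0.28). The 13 B1 cell markers had a median of -0.26, 11 means below 0 and 2 at an unadjusted p under 0.05, which was 1 without both arrays numbered 10 and 1 to 4 when 1 array was left out, the most without wild-type array 5 or knockout array 5. Some of these genes, such as Itgam and Ctla4, are also expressed by other cells, and the part of the macrophage markers (-0.63) in their difference was not tested. In 9 of 10 pairs the knockout had the lower list median, 0.24 to 0.92 in the wild type against -0.06 to 0.54. Zbtb32, a transcriptional repressor, had -0.44 (SE 0.17), Plscr1, a phospholipid scramblase, -0.44 (SE 0.19), Anxa2, an annexin, -0.41 (SE 0.23), and Ctla4, an inhibitory receptor also carried by T cells, -0.73 (SE 0.44). Of the 15 plasma cell genes 3 were lower and 0 higher, and 2 lower without both arrays numbered 10. Irf4, the factor that drives plasma cell fate and that activated B cells also express, had -0.81 (SE 0.33), and Jchain, the joining chain of secreted antibodies, had -0.59 (SE 0.23), lower in 9 of 10 pairs. The third was Prg2, a granule proteoglycan, with -0.51 (SE 0.21). Tnfrsf17, the survival receptor BCMA of plasma cells, had -0.55 (SE 0.27). The 11 immature and transitional markers, 9 germinal centre genes and 19 cell cycle genes had medians of -0.08, 0.09 and -0.02. Among the germinal centre genes the death receptor Fas had 0.31 (SE 0.14) and Neil1, a DNA glycosylase, -0.37 (SE 0.16), of which Neil1 no longer had an unadjusted p under 0.05 with the block or without both arrays numbered 10.

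Signalling and metabolic programmes had medians between -0.10 and 0.16. The 26 interferon-stimulated genes had a median of 0.05 with 0 in either direction, Ifit1, Xaf1 and Usp18 at 0.23 (SE 0.23), 0.22 (SE 0.12) and 0.20 (SE 0.16), and Bst2 at -0.37 (SE 0.25). The 15 genes of the IL-4 receptor axis had a median of -0.004, with 1 in each direction: Nfil3, a bZIP factor, had -0.74 (SE 0.31) and Socs1, a feedback inhibitor of cytokine signalling, had 0.32 (SE 0.12). The 12 chemokine, EBI2 and S1P receptors had a median of 0.06 with 0. The 14 integrins and homing molecules had a median of -0.10 with 2 lower, Cd44 and Itgax. The 16 sterol synthesis genes had a median of 0.08 with 2 higher, Cyp51, the lanosterol demethylase, at 0.29 (SE 0.14) and Sqle, squalene epoxidase, at 0.27 (SE 0.13). The 14 glycolysis genes had -0.08 with 1 lower, hexokinase 2 (Hk2, -0.29, SE 0.08), while the monocarboxylate exporter Slc16a3 had -0.43 (SE 0.27). The 20 ribosome biogenesis genes had -0.03 with 0, the 12 BAFF axis genes -0.02 with 1 lower, the death factor Bbc3 (-0.41, SE 0.15), and the 12 heat shock chaperones 0.16 with 0, Hspa1a at 0.51 (SE 0.47). The heat shock median was -0.25 among arrays 1 to 4 and 10, 0.485 among arrays 5 to 9, and 0.047 without knockout array 5. The 19 genes of the unfolded protein response had a median of 0.05 with 3 lower, the stress factors Atf4 (-0.37, SE 0.16) and Ddit3 (-0.45, SE 0.21) and the chaperone Dnajb9 (-0.55, SE 0.24). This count was 0 with the block and 0 without both arrays numbered 10. The 15 NF-kB pathway genes had -0.10 with 1 lower, Nfkbid (-0.67, SE 0.25), with 5 lower without wild-type array 5 and 3 without knockout array 5.

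The small counts of these programmes moved with single arrays or settings. Leaving out 1 array gave 0 to 2 lower IL-4 axis genes (the most without wild-type array 5), 2 to 4 integrins (knockout array 1), 1 to 3 BAFF axis genes (wild-type array 7), 0 to 4 higher sterol genes and, among the neighbours of Dock10, 1 to 4 lower genes (knockout array 5). Without both arrays numbered 10 there were 2 lower glycolysis genes and 1 higher sterol gene, and Cd40 no longer had an unadjusted p under 0.05. With the block there were 3 lower glycolysis genes, and the IL-4 axis had 0 lower and 1 higher.

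Immediate early genes had lower means in the knockout. They encode transcription factors and signal regulators that B cells transcribe within minutes of receptor stimulation, stress or handling. Of 23 measured, 22 had a lower mean in the knockout (9475 of 21892 over all genes), with a median of -0.42. At an unadjusted p under 0.05, 10 were lower and 0 higher, against 1.85% and 2.22% of all genes. The counts were 9 and 0 with the block (3.07% and 4.33%), and 7 and 0 without both arrays numbered 10 (1.61% and 2.02%). Leaving out 1 array gave 8 to 13 lower, the most without wild-type array 5 or knockout array 5. Nr4a2, an orphan nuclear receptor, had ratios of -1.65 to 2.38 (median 1.74) in the wild type and -2.08 to 1.23 (median -1.11) in the knockout, a difference of -1.62 (SE 0.55). Fosb, an AP-1 subunit, had -1.01 to 2.49 (median 1.28) against -1.30 to 1.06 (median -0.66), a difference of -1.42 (SE 0.43). Atf3, a stress-induced bZIP factor, had -1.26 (SE 0.51) and Klf4, a Kruppel-like factor, -1.13 (SE 0.38). Wild-type arrays 5 and 7 were low for all 4 genes and knockout array 5 was high, while the remaining wild-type arrays lay at or above 0.42. By array the median over the list was 0.58 to 1.22 in the other 8 wild-type arrays and -0.47 and -0.39 in wild-type 5 and 7. In the knockout it was -0.53 to -0.24 in arrays 1 to 4, 9 and 10, 0.14 to 0.39 in arrays 6 to 8, and 0.62 in array 5.

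The array sets were also compared on their own. Among arrays numbered 1 to 4 and 10, the 23 immediate early genes had a median difference of -0.85, and among arrays numbered 5 to 9 it was -0.02. Within the first set alone, 5 arrays of each genotype, 26 genes passed an adjusted p of 0.05 (limma) and all 26 were lower in the knockout (0.119%), with 555 lower (2.54%) and 692 higher (3.16%) at an unadjusted p under 0.05. Within the second set 0 genes passed, with 230 lower (1.05%) and 150 higher (0.685%) at an unadjusted p under 0.05. Of the 26 genes, 7 were on the immediate early list, and they are named here after their values were seen. Nr4a2 ranged from 1.70 to 1.99 in the wild type and from -2.08 to -1.02 in the knockout of the first set, a difference of -3.24 (SE 0.18, adjusted p = 0.000157, limma). In the second set it ranged from -1.65 to 2.38 in the wild type and from -1.31 to 1.23 in the knockout. Fosb differed by -2.59 (SE 0.19), Atf3 by -2.69 (SE 0.21), Fos by -1.50 (SE 0.16), Klf4 by -2.12 (SE 0.25), Nr4a1 by -2.04 (SE 0.25) and Klf6 by -0.94 (SE 0.13). Genes outside that list included Maff, a small Maf factor, with -2.61 (SE 0.23), Klf9 with -1.41 (SE 0.11), Ppp1r15a, the stress phosphatase subunit GADD34, with -1.43 (SE 0.19), and Nfkbid, an atypical inhibitor of NF-kB, with -1.42 (SE 0.16). The surface activation marker Cd83 differed by -1.09 (SE 0.16), Ctsl, the protease cathepsin L, by -0.91 (SE 0.12), and Dnajb9, an endoplasmic reticulum chaperone, by -1.27 (SE 0.18). Tnfaip3, the NF-kB inhibitor A20, was not called.

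**Figure D4:**
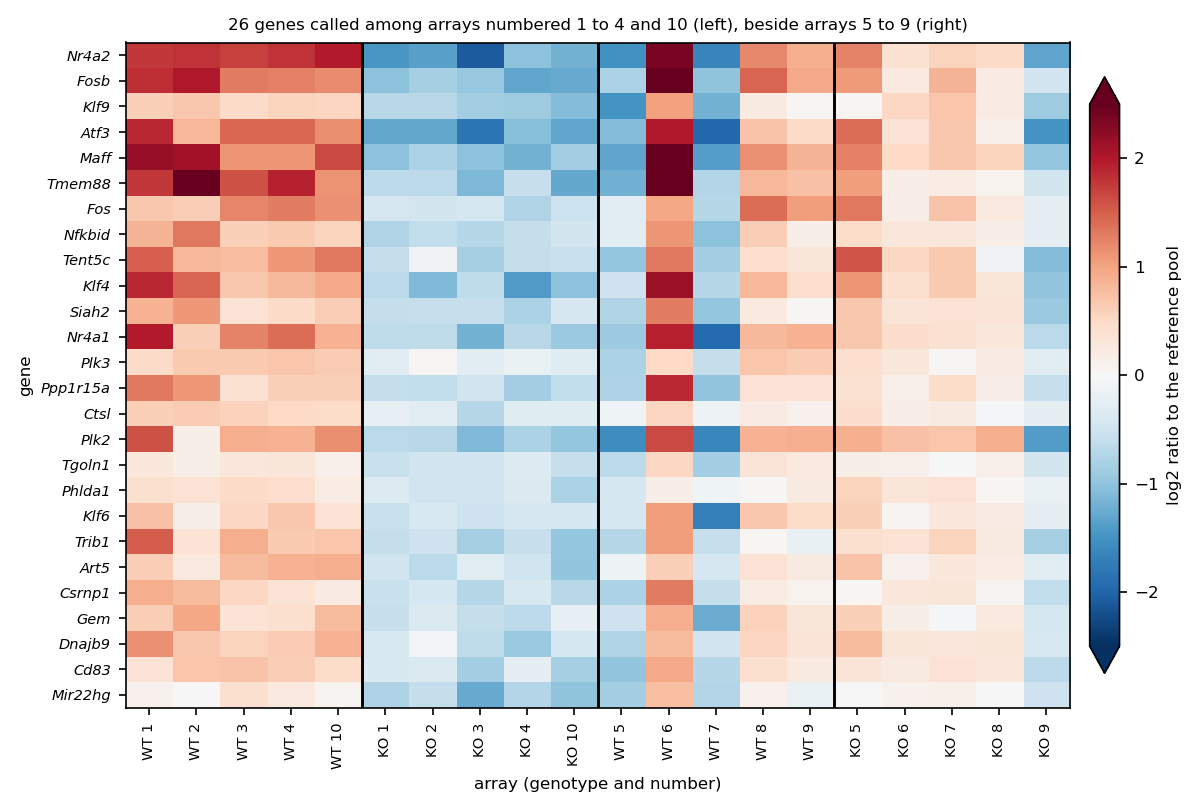
Log2 ratio to the reference pool (colour, red above and blue below the pool, limited at 2.5 on either side) of the 26 genes called among arrays numbered 1 to 4 and 10, 1 column per array before culture. The genes were chosen by their call in the first set, so its contrast is given by that choice, and among arrays 5 to 9 wild-type 5 and 7 are low and knockout 5 is high.

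The calls in the first set depended on which arrays were used. With equal numbers as a block 9 genes passed, 6 of them among the 26, and without both arrays numbered 10 there were 5 (Nr4a2, Fosb, Klf9, Atf3 and Tmem88, an inhibitor of Wnt signalling). Leaving out 1 array at a time gave 10 to 48 calls. The difference between the 2 sets was itself tested with an interaction term over the 20 arrays, and 0 genes passed (adjusted p = 0.998 for Nr4a2, with a difference of -3.24, SE 0.86). At an unadjusted p under 0.05 that test had 312 genes lower (1.43%) and 394 higher (1.8%). So the genotype difference of these genes is not shown to differ between the sets. For macrophage markers the median difference was -0.999 in the first set and -0.30 in the second, and for Dock10 it was -0.41 and -0.35.

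The promoters of the immediate early genes are shown because these genes were high and low in the same arrays. The cyclic AMP response element, an 8-base palindrome bound by CREB and ATF factors, and its half-site are known from several of them, as is the serum response element. Windows from 250 bases before to 50 after the start site were taken from RefSeq (GRCm38.p6) for the 7 called genes of the list. They were searched on both strands for TGACGTCA, for its half-site TGACG, which the full site contains, for the CArG box and for TATAAA. The full site was in 0 of the 7 windows and in 1.8% of all 32544 windows, and the CArG box in 0 and 1.64%. An element more than 250 bases before the start site lies outside these windows and could not be found. The 0 matches therefore do not show that these genes lack either element. The half-site, searched after the full site had given no match, was in 6 of 7, all but Klf6, and in 20.91% of all windows. The windows were not matched for base content, so these shares do not show an enrichment. The letters TATAAA were on either strand in 2 of 7 and in 13.57%. In Fos they lay on the strand of the gene at -33 to -28 from the start site. In Nr4a2 they lay on the other strand at -164 to -159, and so are not placed as a TATA box of this start site. Capitals mark the half-site and TATAAA on either strand, and all 4 sequences are written 5′ to 3′ along the gene. Nr4a2 lies on the minus strand at chr2:57123954-57124253, Fosb on the minus strand at chr7:19309996-19310295, Atf3 on the minus strand at chr1:191183284-191183583 and Fos on the plus strand at chr12:85473640-85473939.
Nr4a2: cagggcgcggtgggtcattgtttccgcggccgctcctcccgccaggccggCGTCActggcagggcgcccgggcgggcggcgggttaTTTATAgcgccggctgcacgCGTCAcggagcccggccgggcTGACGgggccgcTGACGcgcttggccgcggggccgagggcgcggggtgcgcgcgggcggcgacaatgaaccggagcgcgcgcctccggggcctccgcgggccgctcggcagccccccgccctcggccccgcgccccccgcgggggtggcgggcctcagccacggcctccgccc
Fosb: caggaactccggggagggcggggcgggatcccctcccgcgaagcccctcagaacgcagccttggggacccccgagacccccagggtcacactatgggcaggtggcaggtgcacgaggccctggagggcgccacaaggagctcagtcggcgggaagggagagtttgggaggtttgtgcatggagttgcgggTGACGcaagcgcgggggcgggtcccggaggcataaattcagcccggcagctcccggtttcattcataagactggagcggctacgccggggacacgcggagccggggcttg
Atf3: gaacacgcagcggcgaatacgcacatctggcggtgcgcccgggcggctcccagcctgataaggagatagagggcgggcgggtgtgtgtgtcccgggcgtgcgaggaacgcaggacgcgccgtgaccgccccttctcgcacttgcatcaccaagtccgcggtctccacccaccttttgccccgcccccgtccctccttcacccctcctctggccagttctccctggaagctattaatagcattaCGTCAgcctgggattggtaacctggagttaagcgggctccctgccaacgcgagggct
Fos: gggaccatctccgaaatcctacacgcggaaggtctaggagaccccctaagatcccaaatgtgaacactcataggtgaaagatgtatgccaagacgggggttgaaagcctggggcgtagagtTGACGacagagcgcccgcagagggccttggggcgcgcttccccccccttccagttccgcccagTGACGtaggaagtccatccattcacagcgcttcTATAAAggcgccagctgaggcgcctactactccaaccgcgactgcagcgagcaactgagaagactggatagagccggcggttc
Nr4a2 held 4 half-sites in this window, Fos 2, and Fosb and Atf3 1 each. A match is a run of letters and not a shown binding site.

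The genotype difference before culture was then compared with that after 18 h of culture, in a fit of the 30 arrays of mice 6 to 10 with 5 arrays in each group. Against culture without IL-4, 1462 genes had a different genotype effect (6.68%), 485 more negative before culture (2.22%) and 977 more positive (4.46%). Against culture with IL-4 there were 633 (2.89%), 198 (0.904%) and 435 (1.99%), and 1057 with the mouse as a block. Both comparisons use the same fresh arrays. Without the arrays numbered 10 the counts were 814 and 112. The mouse block takes fresh and cultured arrays numbered 10 of a genotype as the same mouse. Their Xist ratios were 4.77 and 4.99 in the fresh arrays and -0.76 to -0.06 in the cultured ones.

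Interferon-stimulated genes are described first. Their genotype difference was close to 0 before culture and negative after it, with medians over 26 genes of 0.07 before culture, -1.78 without IL-4 and -1.40 with IL-4. In culture without IL-4, 26 of 26 were called lower in the knockout than in the wild type (8.43% of all genes were lower and 6.87% higher). With IL-4 it was 24 of 26 (9.85% and 8.57%). Of the 26, 23 differed against culture without IL-4 (4.46% of all genes) and 12 against culture with IL-4 (1.99%), all more positive before culture, and 13 and 1 without the arrays numbered 10. Ifit1, an RNA-binding antiviral protein, had ratios for mice 6 to 10 of -0.73, 0.21, 0.38, -0.37 and 0.05 in WT_Pre and of 0.34, 0.19, 0.06, 0.17 and -0.53 in KO_Pre. Without IL-4 it had -3.38, 0.20, -0.42, -0.57 and -0.45 in WT_Ctrl and -3.08, -3.06, -4.70, -3.05 and -3.88 in KO_Ctrl. The genotypes overlapped before culture, and after it 4 of 5 wild-type arrays lay above all knockout arrays, with wild-type mouse 6 within them. The genotype effect before culture minus that without IL-4 was 2.77 for Ifit1 (SE 0.72, adjusted p = 0.0178, limma, n = 5 each), 3.38 without that array and 2.75 without the arrays numbered 10, where the call was lost (adjusted p = 0.0937). For Usp18, a brake on interferon signalling, it was 2.68 (SE 0.56, adjusted p = 0.00332), and for Xaf1 2.52 (SE 0.48, adjusted p = 0.00149).

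Several surface, trafficking and interferon-induced genes had the same direction. Cd40 was -0.33, -0.12, -0.15, -0.22 and -0.52 in WT_Pre and -0.04, -0.08, -0.12, 0.09 and -0.02 in KO_Pre. Without IL-4 it was -1.50, -0.86, -0.86, -0.90 and -0.83 in WT_Ctrl and -2.62, -2.58, -2.06, -2.32 and -2.19 in KO_Ctrl, with no overlap. Its genotype effect before culture exceeded that without IL-4 by 1.59 (SE 0.18, n = 5 each) and that with IL-4 by 1.39 (SE 0.18), with adjusted p-values of 0.00202 and 0.0155 (limma) without the arrays numbered 10. Of the genes that follow, Cd1d1, Anxa1, Gsn, Spns2 and Sting1 lost the call against culture with IL-4 without the arrays numbered 10 (adjusted p = 0.0706 to 0.0964, limma), and under quantile normalization these IL-4 contrasts shrank to 0.37, 0.34, 0.49, 0.78 and 0.38 (adjusted p = 0.246 to 0.689). Sting1 also lost the call against culture without IL-4 under quantile normalization (1.03, adjusted p = 0.0751), and Rnase6 that with IL-4 (1.02, adjusted p = 0.0518). Cd1d1, which presents lipids and marks marginal zone cells, differed by 1.49 and 0.73, Gbp3, an interferon-induced GTPase, by 1.70 and 1.28, and Rnase6, an antimicrobial ribonuclease, by 1.67 and 1.33. The list of 12 marginal zone markers did not share the direction of Cd1d1. Its medians for these contrasts were -0.51 and -0.09, with 1 gene called more negative and 1 more positive in each. Anxa1, an annexin, differed by 2.68 and 0.95, Gsn, the actin-severing protein gelsolin, by 1.81 and 1.07, Spns2, a sphingosine 1-phosphate exporter, by 2.54 and 1.37, and Sting1, the sensor of cyclic dinucleotides, by 1.37 and 0.69. Serpina3f, a protease inhibitor, differed by 2.44 against culture with IL-4. The genotype differences of these genes before culture lay between -0.03 and 0.23, and those in culture without IL-4 between -2.71 and -0.997.

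**Figure D5:**
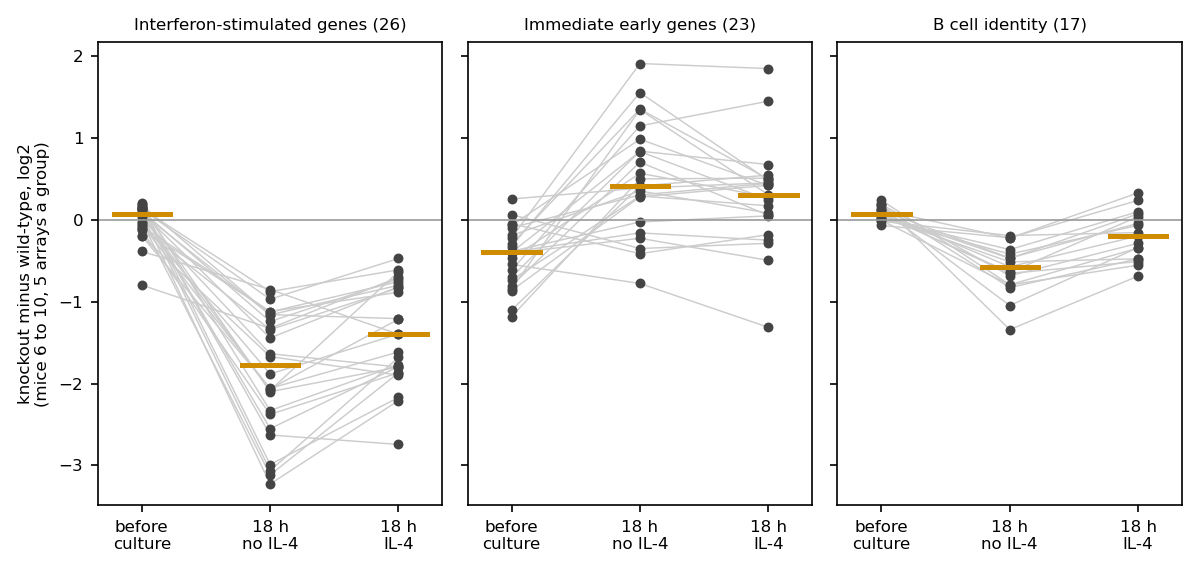
Genotype difference, knockout minus wild-type on the log2 scale, of each gene of 3 lists in mice 6 to 10 (5 arrays a group) before culture, after 18 h without IL-4 and after 18 h with IL-4, with grey lines joining a gene and orange bars at the list median. Interferon-stimulated genes go from a median of 0.07 to -1.78 and -1.40, immediate early genes from -0.40 to 0.41 and 0.31, and B cell identity genes from 0.07 to -0.57 and -0.20.

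Immediate early genes went the other way. Their median genotype difference was -0.40 before culture in mice 6 to 10, 0.41 without IL-4 and 0.31 with IL-4, and 5 of 23 were more negative before culture than without IL-4 (2.22% of all genes) and 3 of 23 than with it (0.904%, and 4 and 1 genes without the arrays numbered 10). Fos, an AP-1 subunit, was 0.97, -0.70, 1.39, 1.04 and 1.13 in WT_Pre and 0.17, 0.71, 0.24, -0.24 and -0.54 in KO_Pre. In cultured cells it was far lower in both genotypes, -7.11 to -6.32 in WT_Ctrl and -6.19 to -5.64 in KO_Ctrl, with no overlap. The genotype effect before culture minus that without IL-4 was -1.54 for Fos (SE 0.38, adjusted p = 0.0125, limma, n = 5 each), and 0.154 was the adjusted p without the arrays numbered 10. For Axl it was -2.17 (SE 0.49, adjusted p = 0.00599, and 0.0619 without the arrays numbered 10) and for Gzmb -2.33 (SE 0.52, adjusted p = 0.00518). Gzmb had means of 0.51 in WT_Pre and -0.18 in KO_Pre, and of -2.7 in WT_Ctrl and -1.06 in KO_Ctrl. With IL-4 its means were 1.54 in WT_IL4 and -0.46 in KO_IL4, where the knockout was again the lower one. Dock10 itself had genotype differences of -0.38 before culture, -0.54 without IL-4 and -1.07 with IL-4 in these mice, and neither contrast passed (0.16, adjusted p = 0.784, and 0.68, adjusted p = 0.109).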

How the data were processed

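RNA of splenic B cells was measured on 2-colour Agilent arrays, and the 20 arrays of fresh cells were compared, with the 20 cultured arrays used only for contrasts. The deposited values are log2 ratios of Cy5 over Cy3, made by the authors with Agilent Feature Extraction 11.0.1.1 per the submitters' processing notes and with GeneSpring GX per the series' design text. The sources used here name no normalization settings, and precision is set by how many arrays there are. Of 39485 probes, 56 were controls and 8804 had no symbol. The other 30625 were averaged to 21892 genes, named through Entrez IDs where these matched RefSeq (30331 probes). No filter was applied and no value was missing. Genotypes were compared with limma 3.58.1 in R 4.3.3 (lmFit, eBayes, Benjamini-Hochberg over all genes). The contrasts with culture used 1 fit of 30 arrays of mice 6 to 10. Members and gene lists were chosen with earlier results of these data known. Genes were named by their p-value, by their sign over the pairs, and as up to 4 members per list with the largest differences.

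Equal numbers were treated as pairs because the deviations of same-numbered wild-type and knockout arrays from their group means correlated in all 10 pairs (r = 0.225 to 0.543, mean 0.368, against -0.455 to 0.556, mean -0.034, for unequal numbers). The labels do not say that a number marks a shared litter or day, and separate animals are given only by these numbers. Arrays of equal number also always lay in the same Xist set, so their correlation does not show a shared litter or day. The alternatives were median centring, quantile normalization, array weights, the dark corner ratio as a covariate, a filter on variable genes, the replicate block, subsets of the arrays and leaving out each array. The split into arrays 1 to 4 and 10 against 5 to 9 follows Xist, and the test of the difference between these sets was added after seeing the data.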

Additional observations from a re-analysis of the deposited data

Results flagged for a closer look

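Some arrays lay apart from the other arrays of their group by Dixon's criterion, in 28 of 356 groups tested, where chance alone gives about 1 in 20 (17.8). Knockout array 5 was high for C2 (1.06), Gabarapl1 (0.61), B3galnt1 (2.08), Mogat1 (0.98), Bbc3 (1.05), the macrophage marker median (1.07) and the germinal centre median (1.26). Knockout array 3 was low for Dock5 (-0.13) and Elmo1 (-0.73), array 4 was high for Siglech (0.50) and the neutrophil median (2.68), and array 1 was high for the integrin median (0.23). In the wild type, array 10 was high for Cd44 (0.47), array 2 for Cd1d1 (0.46), array 7 for the erythroid median (1.22) and array 5 for the platelet median (1.03), while array 3 was low for Pax5 (-1.95). In culture without IL-4, the wild-type array of mouse 6 was low for 8 genes: Gbp3 (-0.32), Gsn (-1.67), Spns2 (-1.51), Rnase6 (-0.92), Sting1 (-0.44), Cd40 (-1.50), Cd1d1 (-1.64) and Ifit1 (-3.38). With IL-4 the same mouse was low for Rnase6 (-1.37) and Dock10 (1.04), and knockout mouse 10 stood apart for Rnase6 without IL-4 (-2.22).

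The genotype difference before culture differed from that in culture by the test of the contrast itself (limma, adjusted p under 0.05). Against culture without IL-4 it was more negative before culture for Axl (-2.17), Gabarapl1 (-1.21), Gzmb (-2.33), Fos (-1.54), Maff (-2.87), Ppp1r15a (-1.45), Ctsl (-0.94), Cd83 (-1.35), Tmem88 (-2.29), Hk2 (-0.88), Atf4 (-0.74), Ddit3 (-1.29), Bbc3 (-0.91), Neil1 (-1.29) and Hba-a1 (-1.62). It was more positive for Zswim3 (0.84), Pigc (1.04), Ms4a1 (1.54), Cd40 (1.59), Cxcr5 (0.73), Cd1d1 (1.49), Ifit1 (2.77), Xaf1 (2.52), Usp18 (2.68), Rac2 (0.55), Acsl3 (0.68), Anxa1 (2.68), Gbp3 (1.70), Gsn (1.81), Spns2 (2.54), Rnase6 (1.67) and Sting1 (1.37). Against culture with IL-4 it was more negative for Fos (-1.38), Nr4a1 (-2.06), Ctsl (-1.10) and Tmem88 (-2.27). It was more positive for Zswim3 (0.81), Mkks (0.78), Zfp830 (0.66), Cd40 (1.39), Cd1d1 (0.73), Ifit1 (2.88), Xaf1 (1.97), Anxa1 (0.95), Gbp3 (1.28), Gsn (1.07), Spns2 (1.37), Rnase6 (1.33), Sting1 (0.69) and Serpina3f (2.44). Against culture without IL-4 the call held under every alternative for Gabarapl1, Gzmb, Zswim3, Ms4a1, Cd40, Cd1d1, Xaf1, Usp18, Anxa1, Gbp3, Gsn, Spns2 and Rnase6. With IL-4 it held for Cd40, Gbp3 and Serpina3f. The other calls were each lost under some alternative, with an adjusted p of up to 0.589 for Rac2 (limma).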

How the results depend on the processing

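With 10 arrays a genotype, 0 genes passed under each alternative except within arrays numbered 1 to 4 and 10 (26), and 0 with equal numbers as a block. Dock10 kept its sign under all 35 alternatives and lay between -0.44 and -0.34 when 1 array was left out (-0.38 with the block). Only 3 wild-type and 2 knockout arrays correlated best with their own number, which does not show that equal numbers are pairs. The 26 calls within arrays 1 to 4 and 10 became 9 with the block, 5 without both arrays numbered 10, and 10 to 48 when 1 array was left out. The difference between the array sets had 0 calls, and 1 with the dark corner ratio as a covariate, 1 without both arrays numbered 10, and 0 to 1 when 1 array was left out. Against culture without IL-4, the 1462 calls became 359 under quantile normalization, 814 without the arrays numbered 10, and 1083 to 1966 when 1 array was left out (1772 with the mouse as a block). Against culture with IL-4, the 633 calls became 1167 with only the 4 groups fitted, 212 under quantile normalization, 1057 with the mouse as a block, 112 without the arrays numbered 10, and 280 to 1256 when 1 array was left out. The causes were not tested.

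Signs turned in 49 of 3966 values of single genes. Among arrays 5 to 9 the difference was -0.12 for Dock9, 0.0014 for Irf4, -0.0016 for Pax5, 0.074 for Ebf1, -0.042 for Ciita, 0.18 for Atf3, 0.0638 for Nr4a1, 0.17 for Klf6, 0.0024 for Maff, 0.39 for Klf9, 0.0872 for Nfkbid, 0.13 for Cd83, 0.0582 for Nfil3, 0.17 for Dnajb9, 0.0003 for Cdc42, 0.0575 for Neil1, and 0.0252 for both Atf4 and Ddit3. Among arrays 1 to 4 and 10 it was -0.033 for Dock11, 0.003 for Fcer2a, -0.55 for Hspa1a and -0.0498 for Rac1. Among arrays 1 to 5 it was -0.0274 for Dock11, 0.34 for Cd3d, -0.0232 for Ms4a1, 0.0656 for Bst2 and -0.0221 for Rac1. Among arrays 6 to 10 it was 0.12 for Fcer2a, 0.0124 for Ebf1 and 0.0077 for Cdc42. Array weights gave -0.0033 for Dock9, 0.14 for Fcer2a and 0.0134 for Ebf1, and the dark corner covariate -0.0154 for Dock11 and -0.0095 for Ms4a1. Leaving out 1 array gave -0.026 to 0.0626 for Dock11, -0.0991 to 0.0746 for Fcer2a, -0.0368 to 0.18 for Ms4a1 and -0.0007 to 0.0726 for Rac1. Of 1295 alternative list medians, 9 moved by over 1 SD.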
